A study of Homo sapiens with 4 samples.

Results

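The members are sgRNAs that had 20 or more raw counts in A549 cells kept in DMSO and 0 counts in the same cells kept in HQ461. There were 159 of them among 77441 sgRNAs, and they targeted 155 genes. The members were chosen by their counts in both conditions, so those counts describe the choice and are not findings. The rule did not use the other sgRNAs of the same genes, here called companions, and their values are given beside sgRNAs of genes with no such loss, non-targeting controls, and the same loss with the columns exchanged.

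A549 is a human lung adenocarcinoma cell line. The cells were infected with the Brunello lentiviral library, which delivers Cas9 sgRNAs against most human genes and non-targeting controls, and were selected with puromycin for 1 week. They were then passaged for 3 weeks in 4 µM HQ461 or in 0.1% DMSO, with 2 biological replicates of each. The deposited table gives both replicates of a condition a single shared column, so no difference between conditions has a replicate check and no test between them was made. The HQ461 column held 16127620 counts with a median of 111 per sgRNA, and the DMSO column held 14428845 with a median of 153. The table names each sgRNA by a number, and the guide sequences and the sites they cut were not used here.

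HQ461 is a molecular glue: it brings the kinase CDK12 with its partner cyclin K to DDB1, the adaptor of the DDB1-CUL4-RBX1 ubiquitin ligase, and cyclin K is then degraded. In a pooled knockout screen each sgRNA marks the cells that received it, and its read count tracks how well they grew. An sgRNA against a gene needed in both conditions becomes rare in both, and an sgRNA whose knockout slows growth more under the compound becomes rare under the compound. A guide carried by few cells can also drop out of a culture through sampling alone.

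Of 73681 sgRNAs with 20 or more counts with DMSO, the 159 members made up 0.216% (95% exact Clopper-Pearson interval 0.184% to 0.252%). With the columns exchanged, 24 of 69187 sgRNAs with 20 or more counts with HQ461 had 0 counts with DMSO, or 0.0347% (0.0222% to 0.0516%). No gene had sgRNAs in both sets, which held 155 and 24 genes, beside 19103 genes with 4 sgRNAs in the library. Sets this small would seldom share a gene by chance, so the lack of overlap says little. The intervals given for the shares cover counting error only, since the deposited values count PCR reads. Among non-targeting controls, 0 of 994 were lost with HQ461, which allows a share of up to 0.302% if 0 counts allow 3 (the exact interval reaches 0.370%), and 0 of 990 were lost with DMSO. The control with the fewest counts in HQ461 among those 994 went from 28 counts with DMSO to 1 with HQ461, and the next went from 32 to 9. Controls were far more abundant than the members, at a median of 525 counts with DMSO, and 9 of them lay between 20 and 99 counts. They therefore say little about loss at the counts where most members lay.

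The members had a median of 32 counts with DMSO, from 20 to 235, and 129 of the 159 had under 50. Among all targeting sgRNAs with 20 or more counts with DMSO, 7.26% had under 50. On scaled counts, where each column is divided by a factor that sets the median sgRNA to no change, 0 counts with HQ461 allow up to 3. Against that limit the members were at least 4.63-fold to at least 54.4-fold lower with HQ461. Here and below, such folds take the counts with DMSO, which the rule used, as exact. They allow for counting error in the 0 alone. At the edge of the rule, 9 members had exactly 20 counts with DMSO, and 14 sgRNAs with 19 counts fell outside it. A further 178 sgRNAs with 20 or more counts with DMSO had 1 count with HQ461 and were left out, at a median of 36 with DMSO. The most abundant sgRNAs just outside, at 1 to 3 counts with HQ461, targeted CBLL1 (351 counts with DMSO), ITGB5 (281), TOR1AIP2 (225) and YPEL5 (164). CBLL1 belongs to the complex that writes m6A on mRNA, and YPEL5 to the CTLH ubiquitin ligase.

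The share lost was smaller at higher counts with DMSO. From 20 to 29 counts with DMSO, 69 of 1499 targeting sgRNAs were lost with HQ461, or 4.60% (3.60% to 5.79%). The share was 1.59% from 30 to 49 counts, 0.146% from 50 to 99 and 0.0340% from 100 to below 200, where 9 of 26458 were lost. At 200 or more counts a single sgRNA of 27224 was lost. With the columns exchanged, 10 of 3795 targeting sgRNAs with 20 to 29 counts with HQ461 were lost with DMSO, or 0.264% (0.126% to 0.484%), and 1 of 19238 from 100 to below 200. The exchanged share was thus lower at the same raw counts in each range below 200. From 100 to below 200 counts the intervals overlapped, at 0.0156% to 0.0646% with HQ461 and 0.000132% to 0.0290% with the columns exchanged. At 200 or more counts the exchanged loss was 1 of 21607, or 0.00463%, against 0.00367% with HQ461. The most abundant exchanged loss had 405 counts with HQ461. Equal raw counts are not equal depth, since 20 counts with DMSO scale to 13.9 at the depth of the HQ461 column. With a minimum of 20 scaled counts, 119 sgRNAs were lost with HQ461 and 26 with DMSO, and the ranges were not recounted on that scale. The SD of the counts of non-targeting controls was 0.381 of their mean in the DMSO column and 1.22 of it in the HQ461 column. The part of this spread in the losses was not tested.

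In 4 genes 2 sgRNAs were lost, and in the other 151 genes 1 was lost. With the columns exchanged, each of the 24 lost sgRNAs belonged to a different gene. The 4 genes were TOR1AIP2, DDB2, LSM3 and PGAM1. TOR1AIP2 and DDB2 had their remaining sgRNAs at 3 counts or fewer with HQ461 as well, whereas LSM3 and PGAM1 each had an sgRNA that was more abundant with HQ461.

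TOR1AIP2 (chromosome 1, 179839967 to 179877803 on GRCh38, minus strand) encodes LULL1, a membrane protein of the endoplasmic reticulum that activates torsin ATPases. Its 2 lost sgRNAs had 235 and 84 counts with DMSO, at least 54.4-fold and 19.4-fold lower with HQ461. The other 2 went from 225 and 154 counts with DMSO to 3 counts each with HQ461, with log2 fold changes of -5.36 and -4.81. Without the lost sgRNAs, these 2 companions held 379 counts with DMSO and 6 with HQ461, which is 43.8-fold lower on scaled counts (95% counting interval 19.95 to 120.2). The sgRNA with 235 counts was the most abundant member. TOR1AIP1, the torsin activator of the nuclear envelope encoded beside TOR1AIP2, held 591 counts with DMSO and 506 with HQ461 over 4 sgRNAs, whose log2 fold changes were 1.06, 0.43, -1.64 and -1.71. None of the TOR1AIP1 sgRNAs was under 19 counts with HQ461. TOR1A, the gene of torsin-1A, had a median log2 fold change of -0.08, and TOR1B had 0.44.

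DDB2 (chromosome 11, 47214465 to 47239217, plus strand) encodes a receptor of the DDB1-CUL4-RBX1 ligase that binds UV-damaged DNA. Its 2 lost sgRNAs had 128 and 121 counts with DMSO, at least 29.6-fold and 28.0-fold lower with HQ461. The others went from 115 to 3 and from 103 to 1, with log2 fold changes of -4.39 and -5.30. The 4 sgRNAs had close values with DMSO and none was above 3 with HQ461. The 2 companions together went from 218 counts to 4, which is 37.8-fold lower (14.6 to 140.1).

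LSM3 encodes a subunit of the LSm ring that binds U6 snRNA and acts in mRNA decay. Its lost sgRNAs had 25 and 20 counts with DMSO, another went from 18 to 2, and the last went from 67 to 121. PGAM1 encodes the glycolytic enzyme phosphoglycerate mutase. Its lost sgRNAs had 29 and 20 counts with DMSO, and the others went from 47 to 6 and from 91 to 160. In both genes the losses fell on sgRNAs with few counts with DMSO, and the most abundant sgRNA had a log2 fold change above 0, at 1.36 for LSM3 and 1.33 for PGAM1.

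PPP6C (chromosome 9, 125146573 to 125189939, minus strand), the catalytic subunit of protein phosphatase 6, has 1 member, chosen for description after its values had been seen. The lost sgRNA had 53 counts with DMSO, another went from 14 to 0 and fell short of the count minimum, and the last 2 went from 152 and 103 to 1 each. Those 2 had log2 fold changes of -5.86 and -5.30. The 3 companions together went from 269 counts to 2, or 93.3-fold lower (25.6 to 775), in a gene picked with these values known. Of the 19103 genes with 4 sgRNAs, 29 had none above 3 counts with HQ461. With a bound chosen after the values had been seen, of these 29 TOR1AIP2, DDB2 and PPP6C held 300 or more counts with DMSO in sum, and the next gene, SOD2, held 106. PPP6R1, PPP6R2 and PPP6R3, the regulatory subunits of the phosphatase, had median log2 fold changes of 0.94, 1.29 and 0.59. Their single sgRNAs ran from -0.19 to 1.93, from -1.74 to 1.59 and from 0.28 to 4.87.

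The 10 members of highest count with DMSO had 106 to 235 counts and targeted TOR1AIP2, ITGAV, DDB2 (2 sgRNAs), POU2F1, LARP7, SNRPA, CDK10, PDCL and PPP1R8. ITGAV (chromosome 2, 186590010 to 186680901, plus strand), the integrin alpha-V chain that binds vitronectin with its beta partners, had a lost sgRNA of 171 counts. Its others went from 263 to 21, from 166 to 17 and from 37 to 7. All 3 were thus lower with HQ461, with log2 fold changes of -3.07, -2.70 and -1.76, though none was at 0. ITGB5, the beta-5 partner of ITGAV, has no member, and its sgRNAs went from 281 to 2, from 251 to 43, from 212 to 25 and from 165 to 16. Their median log2 fold change was -2.65. The medians of the other beta chains that pair with alpha-V were 1.42 for ITGB3, 0.36 for ITGB6, -0.66 for ITGB1 and -0.80 for ITGB8. Their single sgRNAs spread widely around these medians. They ran from 0.97 to 2.15 in ITGB3, -0.26 to 4.45 in ITGB6, -1.09 to 0.58 in ITGB1 and -3.06 to -0.17 in ITGB8.

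Among the rest of these 10, LARP7, SNRPA, CDK10 and PPP1R8 had all 3 companions at a log2 fold change below 0. LARP7 binds the 7SK RNA that holds the elongation kinase P-TEFb in reserve. Beside the lost sgRNA of 111 counts, its sgRNAs went from 202 to 39, from 144 to 41 and from 51 to 13. SNRPA, a protein of the U1 snRNP, lost an sgRNA of 108 counts, and the others went from 124 to 23, from 123 to 38 and from 73 to 2. CDK10 is a cyclin-dependent kinase. Its lost sgRNA had 107 counts, and the others went from 141 to 28, from 98 to 3 and from 51 to 19. PPP1R8, a nuclear regulator of protein phosphatase 1, lost an sgRNA of 106 counts, and its others went from 156 to 58, from 45 to 7 and from 44 to 2. FAM58A, the gene of cyclin M and partner of CDK10, also has a member, of 63 counts, but its other sgRNAs had log2 fold changes of 0.31, 0.08 and -0.45.

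In the last 2 of these genes the companions were mixed. The lowest had a log2 fold change of -1.93 in POU2F1 and -1.43 in PDCL. POU2F1 encodes the transcription factor OCT1. Its lost sgRNA had 115 counts with DMSO, and the others went from 170 to 164, from 119 to 21 and from 58 to 155. PDCL, a phosducin-like cochaperone, lost an sgRNA of 106 counts, and its others went from 332 to 85, from 203 to 130 and from 179 to 147. The median log2 fold change of the 3 others was 0.47 for POU2F1 and -0.12 for PDCL.

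Over the 155 genes, the 461 sgRNAs that were not members had a median log2 fold change of -0.54, with an interquartile range of -1.55 to 0.37. The 75821 sgRNAs of genes with no lost sgRNA had a median of 0.00 (-0.71 to 0.76), and non-targeting controls had -0.04. Of the 461, 177 were below -1, or 38.4%, against 17.6% of sgRNAs of the other genes and 6.80% of controls. Without matching for count with DMSO, counts of 3 or fewer with HQ461 were found for 100 of the 461, or 21.7%, against 2.94%. Above 1 the order was the other way, at 14.3% against 19.5%. The sgRNAs that were not members were also rarer with DMSO, at a median of 73 counts against 152 in genes with no loss. From 20 to below 50 counts with DMSO, 13 of 73 companions had 3 or fewer with HQ461, or 17.8%, against 7.05%. From 50 to below 100 they were 4 of 103, or 3.88%, against 1.13%. From 100 to below 200 they were 5 of 106, or 4.72%, against 0.0835%. At 200 or more it was 1 of 67, or 1.49%, against 0.00736%. The rest of the 100 had under 20 counts with DMSO, where no comparison was made.

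In each range of count from 20 with DMSO, the companions had a lower median than sgRNAs of genes with no loss. The gap was widest from 20 to 49 counts. Companions under 20 counts were not compared in this way, and the part of count was not tested. Among non-members of these genes with 200 or more counts with DMSO, 67 sgRNAs had a median log2 fold change of -0.42, against 0.01 for 27156 sgRNAs of other genes in that range. From 100 to below 200 counts the medians were -0.52 and -0.05, from 50 to 99 they were -0.26 and 0.02, and from 20 to 49 they were -1.21 and 0.06. With the columns exchanged, the 72 remaining sgRNAs of the 24 genes had a median of 0.73, and their median count with DMSO was 24. The median of each set of companions thus lay on the side of the lost sgRNA. The exchanged set was not compared with other genes within ranges of count. The sgRNAs of a gene share their target and are not independent, and these medians are descriptions of 1 pair of columns.

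Gene by gene the companions were mixed. All 3 were below a log2 fold change of 0 in 44 of the 151 genes with 1 lost sgRNA, or 29.1%. In genes with no loss, any 3 of the 4 sgRNAs met this in 15.2% of cases. All 3 were below -1 in 15 genes, or 9.93%, against 1.17%. In 97 genes 1 or 2 of the 3 were below 0, and in 10 genes none was. In 52 genes at least 1 companion was above 1, or 34.4%, against 44.4%. The genes with no loss were not matched for count here. Among their sgRNAs, 26.1% of those with 20 to 49 counts with DMSO were below -1, against 11.2% with 200 or more. The part of count in these differences was not tested. The 15 genes with all 3 below -1 were CHD4, COX17, FBXW7, ITGAV, LARP7, OSBPL8, PCYT1A, POLR2B, PPP6C, PRPF4, RANBP2, RBM18, SNRPA, TRIAP1 and TTC4. In PCYT1A, TTC4, PRPF4, TRIAP1, FBXW7, POLR2B and PPP6C the rarest companion had 3 to 14 counts with DMSO. At such counts a few reads decide the log2 fold change. In the rest of the 15 every companion had 23 or more.

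Where all 3 companions had 20 or more counts with DMSO, genes could be ordered by the companions' median, which was possible for 81 genes. The lowest was EEF1E1, a scaffold protein of the multi-tRNA-synthetase complex, at -3.44. Its lost sgRNA had 26 counts with DMSO, and the others went from 43 to 2, from 39 to 1 and from 78 to 55, the last of which is a log2 fold change of 0.02. ITGAV followed at -2.70, PPP1R8 at -2.03, RBM18, which encodes an RNA-binding protein, at -2.02 and SNRPA at -1.87. The RBM18 sgRNAs went from 170 to 31, from 97 to 16 and from 77 to 3 beside a lost sgRNA of 45 counts.

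At the other end were INSL3 at 1.87, MPHOSPH6 and TPTE2 at 1.71, TSSK6 at 1.70 and SOCS6 at 1.22. INSL3 is a peptide hormone of the testis. Its lost sgRNA had 40 counts with DMSO, and its others went from 59 to 312, from 99 to 253 and from 423 to 308. In TSSK6, a testis kinase, the companions themselves disagreed, going from 129 to 4, from 56 to 518 and from 169 to 383. SOCS6, a receptor of CUL5 ligases, had 1 sgRNA of 20 counts lost while the others went from 108 to 176, from 129 to 108 and from 137 to 267. The lost sgRNAs of these 5 genes had 20 to 47 counts with DMSO.

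The 20 members from 50 to below 100 counts with DMSO targeted RBM15, MRE11A, TOR1AIP2, CLEC4G, DEFB112, FAM19A4, UHRF1BP1L, UBE2N, FAM58A, MED28, EIF2B1, ENY2, RRAGD, ARHGAP11B, C3orf38, PPP6C, PRH2, MYCBP2, U2SURP and POLR2B. RBM15, an adaptor of the m6A writer, lost an sgRNA of 96 counts, and the others went from 240 to 46, from 233 to 83 and from 109 to 101. ENY2, a subunit of the SAGA coactivator, lost an sgRNA of 58 counts, and its others went from 145 to 137, from 129 to 52 and from 57 to 17. POLR2B, the second largest subunit of RNA polymerase II, lost an sgRNA of 50 counts, and its others went from 261 to 85, from 17 to 1 and from 11 to 1. In these 3 genes 1 companion or more stayed well above 0 with HQ461, unlike in TOR1AIP2, DDB2 and PPP6C.

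Some members of lower count had abundant companions that were lower as well, and they were picked for description after their values had been seen. TEAD1, a transcription factor of the Hippo pathway, lost an sgRNA of 28 counts, and the others went from 235 to 105, from 224 to 59 and from 208 to 34. FBXW7, a substrate receptor of CUL1 ligases, also lost an sgRNA of 28 counts, and the others went from 116 to 24, from 102 to 8 and from 7 to 1. COX17, a copper chaperone of cytochrome oxidase, lost an sgRNA of 31 counts, and its others went from 131 to 15, from 90 to 27 and from 81 to 19. Some members target genes of duplicated families or readthrough loci, such as PPIAL4D, PRAMEF9, FRG2B, ARHGAP11B, OR2T34, TPTE2, HIST1H2AJ and HSPE1_MOB4. Whether their sgRNAs also match related copies was not checked, so the target of these sgRNAs is uncertain.

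Of 17 gene lists of the pathways around HQ461 and of growth, 8 held a member, and 144 of the 155 genes were in none. Each list is given as lost sgRNAs of those with 20 or more counts with DMSO, beside 0.216% over the library. The 12 genes of the ligase, its E2 and its activators had 0 of 35. The 18 genes listed as CDK12, CDK13, cyclin K and Pol II elongation kinases had 0 of 52. LARP7, described above, was not in that list. DCAF substrate receptors had 3 of 140, from DDB2 and from RBBP5, a WD40 protein of histone methyltransferase complexes, whose lost sgRNA had 26 counts. Nucleotide excision repair had 2 of 67, both from DDB2. The COP9 signalosome had 0 of 16, the 19S proteasome 0 of 49 and the 20S proteasome 1 of 20. That member targets PSMB1, a core subunit, and had 27 counts, while the other PSMB1 sgRNAs had log2 fold changes of -0.13, 1.80 and 2.02.

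Homologous recombination and Fanconi repair, in which several genes depend on CDK12 for their expression, had 2 of 135. MRE11A, a nuclease of double-strand break repair, lost an sgRNA of 89 counts, while the others went from 57 to 46, from 25 to 43 and from 14 to 15 and had log2 fold changes of 0.21, 1.27 and 0.59. CHEK1, the checkpoint kinase, lost an sgRNA of 23 counts, and the others went from 42 to 11, from 13 to 4 and from 0 to 0. DNA replication had 2 of 117, in PRIM1 (43 counts) and POLA2 (23 counts), which encode subunits of the primase and polymerase alpha complex. Cytosolic aminoacyl-tRNA synthetases had 2 of 29, in QARS (34 counts) and GARS (22 counts). Respiratory complex I had 1 of 178, in NDUFAB1 with 20 counts.

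The other lists without a lost sgRNA, beside the 4 given above, were mitochondrial ribosomal proteins (0 of 239), cytosolic ribosomal proteins (0 of 124), the p53 pathway (0 of 44), the NRF2 pathway (0 of 65) and keratins (0 of 566). Olfactory receptors, whose genes are mostly silent outside the nose, had 1 of 1468, or 0.0681% (0.00172% to 0.379%). That sgRNA, against OR2T34, had 31 counts with DMSO, and its companions had log2 fold changes of 0.08, 0.75 and 1.28. With the columns exchanged, where the share over the library was 0.0347%, cytosolic ribosomal proteins had 5 lost of 130 sgRNAs with 20 or more counts with HQ461 and the 20S proteasome had 1 of 34. The other 15 lists had 0. The median count with DMSO differed widely between lists, from 9 for the synthetases to 168.5 for keratins, and it moves with the chance of loss. Its part in these counts was not tested.

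Families named by their gene symbols were counted too, after the members had been seen, so these counts support nothing beyond the description. The share over the library was 0.216%, but it was 4.60% for targeting sgRNAs with 20 to 29 counts with DMSO and 1.59% from 30 to 49. Median counts with DMSO ran from 22 for RNA polymerase subunits to 145.5 for regulatory subunits of protein phosphatase 1. The part of count in the family losses was not tested. Proteins of the Sm and LSm rings and U snRNPs had 4 lost of 61 sgRNAs with 20 or more counts, in LSM3 (2), SNRPA and SNRPG. Nucleoporins had 4 of 88, in NUP160, NUP214, RANBP2 and SEC13. Translation initiation factors had 4 of 152, in EIF2B1, EIF2B3, EIF3I and EIF4G2, and constitutive centromere proteins had 3 of 61, in CENPC, CENPP and CENPW. VPS proteins of vesicle sorting had 3 of 113, RNA polymerase subunits 2 of 63 (POLR1C and POLR2B), Mediator 2 of 96 (MED6 and MED28), prefoldin 2 of 18 (PFDN6 and VBP1), PRPF splicing factors 1 of 33 (PRPF4), Integrator 1 of 26 (INTS7) and regulatory subunits of protein phosphatase 1 had 1 of 156 (PPP1R8). In several of these genes other sgRNAs were already near 0 with DMSO, such as PRPF4 with 4, 8 and 11 counts and SNRPG with 0, 0 and 22.

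Among the translation factors, EIF2B1 encodes a subunit of EIF2B, the exchange factor that reloads eIF2 with GTP. Its lost sgRNA had 62 counts with DMSO, and the others went from 157 to 22, from 23 to 11 and from 17 to 17. The lost EIF2B3 sgRNA had 22 counts, and its others went from 63 to 34, from 18 to 11 and from 12 to 5. The other EIF2B subunits differed, with median log2 fold changes of 0.60 for EIF2B2, -1.33 for EIF2B4 and -1.18 for EIF2B5. MED28, which lost an sgRNA of 63 counts, had others that went from 112 to 47, from 24 to 2 and from 4 to 0. UBE2N, the E2 enzyme of K63-linked ubiquitin chains, lost an sgRNA of 65 counts, and its others went from 55 to 9, from 40 to 4 and from 1 to 1.

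By chromosome, 3 of 4221 sgRNAs with 20 or more counts with DMSO were lost on chromosome 17, or 0.0711% (0.0147% to 0.208%). On chromosome 11, 9 of 4768 were lost, or 0.189% (0.0863% to 0.358%), and on the other chromosomes 145 of 62909, or 0.230% (0.195% to 0.271%). The intervals of chromosome 17 and the rest meet in this range, from 0.195% to 0.208%. From 20 to 49 counts with DMSO the shares were 1.01% (0.208% to 2.91%) on chromosome 17 and 2.57% (2.13% to 3.07%) on the others. The median log2 fold change over all sgRNAs of chromosome 17 was 1.01, so its sgRNAs were on the whole more abundant with HQ461. Chromosome 1 held the most members, 25 of 7445, and chromosome 22 had 0 of 1585, whose exact interval reaches 0.232%.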

How the data were processed

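The files come from a pooled knockout screen in A549 cells. The authors counted reads per sgRNA with MAGeCK 0.5.9.2 and deposited the counts without normalization, in 1 column per condition. The way in which 2 replicates became 1 column is not given here. The software was Python 3.11.15, pandas 2.3.3, scipy 1.17.1 and numpy 2.4.6. Members were sgRNAs at 0 with HQ461 and at 20 or more raw counts with DMSO. For log2 fold changes, counts were divided by median-ratio factors (0.833 for HQ461 and 1.20 for DMSO) and 1 was added. A fold against 0 used 3 counts per column. Shares have 95% exact Clopper-Pearson intervals, and ratios of summed counts exact binomial intervals, both for counting error only. Counting and scaling were tested on simulated data with Poisson counting noise around the scaled DMSO counts. That checked the code alone, since the real HQ461 column had a wider spread. It could not show how often sampling gives a 0.

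The members and lists were chosen with earlier results of these data known. Named were genes with 2 or more lost sgRNAs (with the columns exchanged, 3 or more), the 10 most abundant members, the 5 genes at each end of the companions' median, and members of the lists other than olfactory receptors, keratins and mitochondrial ribosomal proteins. PPP6C, partner genes, families, the 15 genes with all companions below -1, OR2T34, SOD2, sgRNAs just outside the rule and the members below 100 counts described beyond these were added after their values had been seen. Genes were placed on GRCh38 with GENCODE 44, 17949 by symbol and 954 through a RefSeq synonym, while 209 were not placed.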

Additional observations from a re-analysis of the deposited data

How the results depend on the processing

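With a minimum of 10 counts in place of 20, 341 sgRNAs were lost with HQ461 and 51 with DMSO, and 18 genes had several lost with HQ461. With a minimum of 50 these were 30, 8 and 2, the last being TOR1AIP2 and DDB2. With 3 or fewer counts taken as lost they were 719, 89 and 47, and 1 non-targeting control was lost. TOR1AIP2 and DDB2 were then the 2 genes with all 4 sgRNAs lost. A minimum of 20 scaled counts left 2 genes with several lost sgRNAs, again TOR1AIP2 and DDB2, and moved the other counts by less than 1.5 times, to 119 and 26. Without chromosomes 11 and 17, an alternative added after the data had been seen, 147 and 18 were lost. Genes with exactly 4 sgRNAs gave the same counts as all genes.

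The companions' median log2 fold change of -0.54 became -1.19 when scaled by total counts, a scaling that puts the median of all targeting sgRNAs at -0.68. The difference from genes with no loss was -0.54 and became -0.51. Under scaling by controls, a pseudocount of 5, a minimum of 20 counts, and removal of chromosomes 11 and 17 or of the 4 genes (the last chosen after the data had been seen), the median lay between -0.54 and -0.45. No paired analysis was possible because replicates share a column, and leaving out a replicate was not run for the same reason. Depth limits what can be said of the 129 members under 50 counts with DMSO, where a single pair of counts cannot separate growth from sampling.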
